A study of Citrus trifoliata with 6 samples.

Results

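Plastid fatty acid synthesis and the acylation of glycerol together make the lipids that a root cell builds its membranes from, and in arbuscular mycorrhiza part of this output leaves the cell for the fungus. The genes described here are those of *Poncirus trifoliata* whose protein annotation (the text of the best database match, as listed in the deposited tables) names a step of this route, such as an acyl carrier protein, a ketoacyl synthase, a biotin carboxyl carrier or a glycerol-3-phosphate acyltransferase. The text found 35 genes, and 2 genes that it does not find, Cs1g21320 (FatG) and Cs5g01990 (the KASII ortholog), were added by identifier. The module therefore held 37 of the 22589 genes with at least 1 read in a library. The study names both added genes as raised by colonization in these same libraries, so that their levels here are a description and no independent evidence of a rise.

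The libraries were made from lateral roots of *P. trifoliata*, a citrus rootstock. The Gv group (3 libraries) came from seedlings that had received 50 g of inoculum with about 3000 spores of the arbuscular mycorrhizal fungus *Glomus versiforme* per pot, and the control group (3 libraries) from seedlings without inoculum. Plants of both groups stood 8 to a pot in sterile quartz sand, were watered with half-strength Hoagland solution of 20 µM phosphorus, and were sampled at 3 months post-inoculation, with at least 9 plants per replicate. The sampling time and the number of plants per replicate are those given by the study. It had grown the seedlings in vermiculite before transplanting them to the sand. The labels give no plant age and no cultivar. The comparison of the groups asks which genes of the route differ in level between colonized and control roots.

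In plants the carbon of fatty acids enters in the plastid, where a multi-subunit acetyl-CoA carboxylase makes malonyl-CoA. The growing chain is carried on an acyl carrier protein (ACP) and is extended in repeated rounds of condensation by ketoacyl-ACP synthases (KAS), reduction, dehydration and a second reduction, until a thioesterase releases it. In the legumes *Medicago truncatula* and *Lotus japonicus*, mycorrhizal roots use dedicated copies of some of these enzymes in arbuscule-containing cells. Among them are a KAS (DIS), a thioesterase (FatM) and a glycerol-3-phosphate acyltransferase (RAM2). The study lists *P. trifoliata* orthologs of DIS, FatM and RAM2 among the genes raised in these same libraries. Higher levels of such enzymes below are therefore no independent evidence of a rise.

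The libraries held 4.34 to 4.63 M reads on genes in Gv (M, 1e6) and 4.51 to 4.71 M in control. The marker genes of the arbuscule, the phosphate transporters Cs7g29450 and Cs9g18560 (PT4 orthologs), had a summed level of 165.1, 179.8 and 1053.5 RPKM (reads scaled by gene length and by library size) in Gv replicates 1, 2 and 3 and of 0 to 0.269 RPKM in the control libraries. Gv replicate 3 thus stood far above the other Gv libraries in these markers, and it did so in many of the genes below. Replicate 3 also deviated from the others in the control group, and the deviations of same-numbered libraries from their group means were correlated across genes (0.359, 0.478 and 0.611 for numbers 1, 2 and 3). Values with the replicate number as a block are therefore given where they change a call. Levels of 8 genes of green tissue summed to 102.3 to 143.7 RPKM in Gv and 111.1 to 125.5 RPKM in control, so the groups overlapped. Most of each sum came from 1 gene, the small chain of ribulose bisphosphate carboxylase (Cs4g03580). It had 90.8 to 137.3 RPKM in Gv and 99.6 to 117.7 RPKM in control. The summed level of 3 Casparian strip genes was low in all libraries, 2.36 to 4.75 RPKM in Gv and 3.77 to 9.72 RPKM in control, and none of them passed the filter on low counts, so the endodermis was not well marked. In whole roots a larger number of cells of a type and more RNA per cell cannot be told apart.

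Genes count as called here at an adjusted p under 0.05, over all genes tested, with a log2 fold change of 1 or more in either direction. By edgeR's quasi-likelihood test without a block, 0 of the 30 members that passed the filter were called, as were 0% of all 16281 genes tested in either direction. An unadjusted p under 0.05 was found for 7 members and for 4.57% of all genes. With the replicate block 3 members were called higher, against 0.958% of all genes. DESeq2 called 4 members higher (1.15% of all genes), and the NOISeq criterion of the study, re-implemented, placed 5 members higher (1.35% of the 22589 genes listed). The 3 genes called with the block were the ACP gene Cs4g06460, FatG and the acyltransferase GPAT6 (Cs6g20410). DESeq2 called these and the KASII ortholog, and the NOISeq criterion placed the same 4 genes and the biotin carboxyl carrier BCCP2 (Cs6g22090) higher. Without Gv replicate 3, edgeR without the block called 2 members higher (0.41% of all genes), the KASII ortholog and GPAT6, and without replicate 3 in both groups it called 3 (1.02%), these and the ACP gene. No member was called lower by any of these tests, against 0.0369% of all genes with the block and by DESeq2, 0.323% by NOISeq, 0.00603% without Gv replicate 3 and 0.239% without replicate 3 in both groups. Since GPAT6 and FatG passed the filter through their Gv reads and KCS3 (Cs8g17800) through its control reads, and since the members were chosen with results of these libraries known, the counts describe the module and are not a test of it.

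The members were divided by the annotation, and for FatG by the role that the study gives it. They comprised 16 genes of plastid fatty acid synthesis (14 tested), 7 of glycerol acylation (5 tested) and 14 of other pathways that share the wording (11 tested). The FabG-like Cs6g16960 was counted with the plastid genes although its annotation names no compartment. The median log2 fold change was 0.48 over the plastid genes tested, −0.03 over the acylation genes and −0.13 over the other genes, beside −0.01 over all genes tested.

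**Figure D1:**
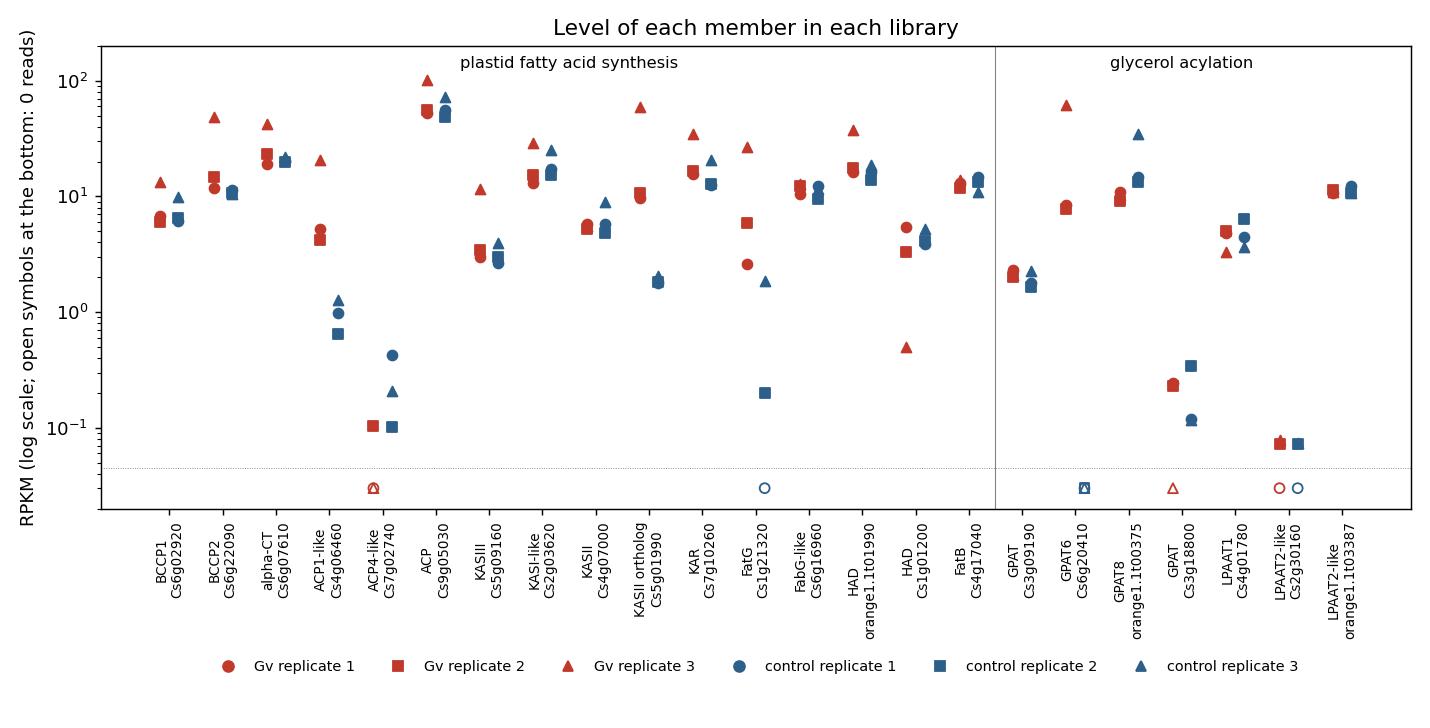
RPKM (log axis) of the 16 plastid and 7 glycerol acylation members in each library, Gv in red and control in blue, with 1 symbol per replicate number and open symbols at the bottom for 0 reads. The ACP1-like gene, the KASII ortholog, FatG and GPAT6 have every Gv library above every control library, while most other members overlap, and most plastid members have their highest value in Gv replicate 3.

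The first committed step, the carboxylation of acetyl-CoA, was represented by BCCP1 (Cs6g02920), BCCP2 and the alpha-carboxyltransferase subunit (Cs6g07610). BCCP2, a carrier of the biotin on which carbon dioxide is fixed, had 142, 186 and 582 reads in the Gv libraries, in the order of replicates 1, 2 and 3, against 141, 140 and 131 in the control libraries in the same order. The level in Gv replicates 1 and 2 was thus close to the controls, and in Gv replicate 3 several times above them. Its log2 fold change was 1.18 (standard error, SE, 0.53, n = 3 per group, edgeR adjusted p = 1.00) and 0.27 without Gv replicate 3. The NOISeq criterion placed it among the higher genes with a probability of 0.828, a call that the other tests did not share. The other carrier, BCCP1, had 121, 112 and 233 reads in Gv against 112, 125 and 182 in control, and the groups overlapped. The alpha-carboxyltransferase, which transfers the carboxyl group to acetyl-CoA, had 533, 682 and 1154 reads in Gv against 572, 591 and 627 in control, with a log2 fold change of 0.44 (SE 0.29). As in BCCP2, replicates 1 and 2 were alike in both groups and Gv replicate 3 was highest. BCCP2 made up 31.1%, 33.3% and 46.8% of the summed RPKM of the 3 subunits in Gv and 24.8% to 30.2% in control.

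Among the carriers of the acyl chain, the ACP1-like gene Cs4g06460 had 113, 96 and 449 reads in Gv against 22, 15 and 29 in control. Every Gv library was above every control library, at 4.18 to 20.8 RPKM against 0.642 to 1.28 RPKM. Reads pooled by group and scaled by normalized library size (as in all pooled ratios and bounds below) were 10.2 times as many in Gv. The 95% exact counting interval was 7.91 to 13.3, which covers counting error only. The log2 fold change was 3.36 (SE 0.71, edgeR adjusted p = 0.377). With the replicate block it was 3.15 and the gene was called (adjusted p = 0.0247), and DESeq2 also called it (adjusted p = 6.47e-05). Without Gv replicate 3 the log2 fold change fell to 2.28 and the gene was not called (adjusted p = 0.07), and without replicate 3 in both groups it was 2.50 and called (adjusted p = 0.015), both by edgeR without the block. The main ACP of these roots, Cs9g05030, behaved otherwise, with 609, 677 and 1146 reads in Gv, 668, 599 and 860 in control and a log2 fold change of 0.23. It took 82.8% to 92.9% of the RPKM of the 3 plastid ACP genes in Gv and 97.6% to 98.5% in control. The ACP1-like gene made up 8.94%, 6.96% and 17.2% of that sum in Gv and 1.3% to 1.75% in control, a minor share in both groups. The third gene, the ACP4-like Cs7g02740, had at most 4 reads in a library and was not tested.

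Among the condensing enzymes, too, a single gene had a large difference in all Gv libraries. The KASII ortholog Cs5g01990, which the study relates to DIS of *L. japonicus*, had 156, 180 and 938 reads in Gv against 29, 31 and 34 in control. The control libraries lay within 1.77 to 2.05 RPKM, and the Gv libraries at 9.75, 10.7 and 59.3 RPKM, so that the spread within Gv was larger than the gap between Gv replicates 1 and 2 and the controls. Pooled reads were 13.9 times as many in Gv (95% exact counting interval 11.2 to 17.3). The log2 fold change was 3.80 (SE 0.80, edgeR adjusted p = 0.377). The block did not bring a call (log2 fold change 3.39, adjusted p = 0.0702), whereas DESeq2 called the gene (adjusted p = 1.24e-05). Without Gv replicate 3 the edgeR test without the block called it as well (log2 fold change 2.44, adjusted p = 0.00925).

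The second gene annotated as KASII, Cs4g07000, had 201, 190 and 190 reads in Gv against 204, 180 and 322 in control, with a log2 fold change of −0.24 (SE 0.22). The KASI-like gene Cs2g03620, which belongs to the synthases that carry out most rounds of elongation, had 212, 263 and 466 reads in Gv against 286, 266 and 428 in control, with a log2 fold change of −0.02 (SE 0.33). KASIII (Cs5g09160), which starts the chain from acetyl-CoA, had 57, 70 and 221 reads in Gv against 52, 61 and 78 in control, with a log2 fold change of 0.91 (SE 0.54) that was 0.02 without Gv replicate 3. None of these 3 genes had groups that parted. Summed over the 4 synthases, the RPKM was 31.5, 34.7 and 105.4 in Gv and 27.2, 24.8 and 40.2 in control. The KASII ortholog made up 30.9%, 30.8% and 56.3% of this sum in Gv and 5.09% to 7.28% in control. The KASI-like gene, whose own reads overlapped, held 27.4% to 44.1% in Gv and 61.2% to 62.8% in control. These shares cover module members only. A further KASIII gene given below, Cs5g09170, is not in the sum. It had 22.8, 21.4 and 43.5 RPKM in Gv and 13.2, 15.1 and 17.1 RPKM in control, so that the shares would be lower with it. The lengths behind RPKM reach 15815 bases, for the acetyl-CoA carboxylase Cs3g18630, and no source says whether introns are counted, so that the libraries can be compared for 1 gene, but levels set beside each other between genes, and the shares, are uncertain.

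**Figure D2:**
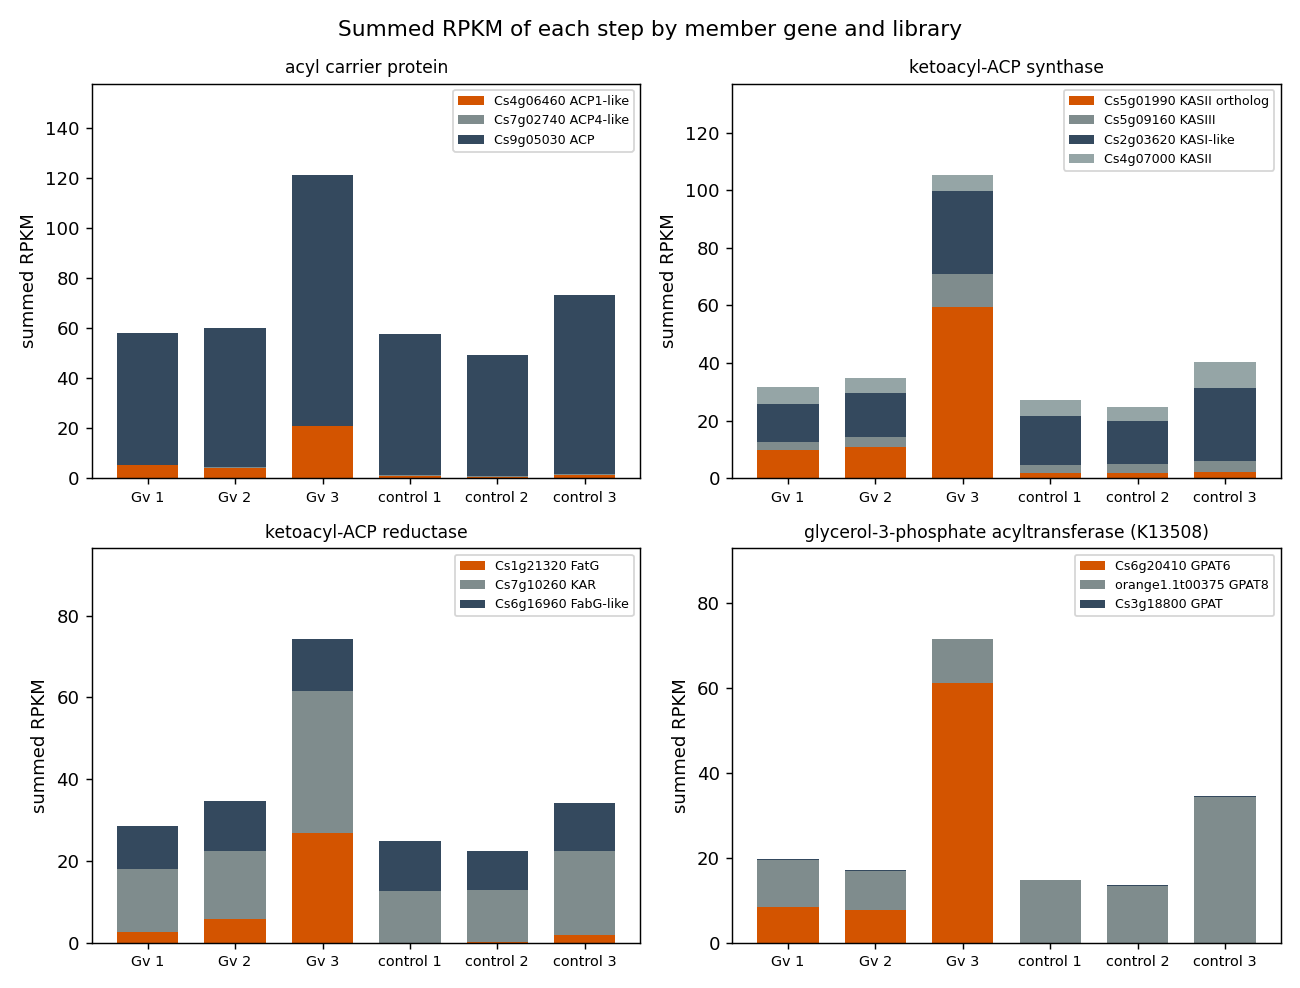
Summed RPKM of the members of 4 steps in each library, stacked by gene, with the gene that differs most between the groups in orange. Only module members are counted, and other genes with the KEGG numbers of some of these steps are left out. The orange part is 0 for GPAT6 and at most 7.28% of the step for the other genes in the control libraries, is present in all 3 Gv libraries and is largest in Gv replicate 3, where the KASII ortholog holds 56.3% and GPAT6 85.6% of the step.

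The reduction that follows condensation was represented by the ketoacyl-ACP reductase KAR (Cs7g10260), FatG and a FabG-like gene (Cs6g16960) for which the annotation names no compartment. The files annotate FatG only as an uncharacterized oxidoreductase, and its role as a ketoacyl-ACP reductase is that given by the study, which also amplified its upstream region and its transcript. No genome was used here. The study's primers for FatG, on chromosome 1 of *Citrus sinensis* as its identifier gives it, are shown because they mark the DNA that was amplified for this gene. The upstream fragment was amplified with the following pair, written 5′ to 3′.
pPtrFatGF: taaagtgatgctgtcattg
pPtrFatGR: atttcttcttgttcgtta
A further pair for the quantification of the transcript is listed under a single name.
qPtrFatGF: gcagtgggagcatcgtaaat
qPtrFatGF, second entry: aagtatcggacatggcaagc

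FatG had the fewest reads of the genes with a large difference, with 12, 29 and 123 reads in Gv against 0, 1 and 9 in control. Replicate 3 was the highest library in both groups, and the lowest Gv library (12 reads) was close to the highest control library (9 reads). The log2 fold change was 4.04 (SE 1.25, edgeR adjusted p = 0.739), and pooled reads were 16.8 times as many in Gv (95% exact counting interval 8.9 to 35.7). With the block, which compares libraries of the same number, it was called (log2 fold change 4.13, adjusted p = 0.0169), and by DESeq2 it was just past the threshold (adjusted p = 0.0479). Single libraries moved its value, to 2.59 without Gv replicate 3 and to 6.47 without control replicate 3, and neither of these edgeR fits called it. KAR had 362, 402 and 795 reads in Gv against 299, 319 and 499 in control, overlapping, with a log2 fold change of 0.53 (SE 0.36). Within each replicate number, however, KAR was higher in Gv, with log2 ratios of 0.34, 0.28 and 0.77. The FabG-like gene had 99, 122 and 119 reads in Gv against 119, 96 and 115 in control, with a log2 fold change of 0.08. FatG made up 9.02%, 17.1% and 36.1% of the summed RPKM of the 3 genes in Gv and 0% to 5.44% in control. These shares cover module members only. Other genes with the KEGG number of KAR are not in the sum, the highest of them Cs5g26540. It had 16.2, 18.1 and 16.1 RPKM in Gv and 13.1, 10.5 and 11.4 RPKM in control, without overlap. Its log2 fold change was 0.52 (SE 0.15, edgeR adjusted p = 0.668). The shares would be lower with it.

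Dehydration of the hydroxyacyl chain was represented by the dehydrase orange1.1t01990, with 155, 176 and 355 reads in Gv against 160, 142 and 186 in control. It again had like values in replicates 1 and 2 of both groups and its highest value in Gv replicate 3, with a log2 fold change of 0.53 (SE 0.34). The second dehydrase, Cs1g01200, had 1 to 11 reads in a library and was not tested. The thioesterase FatB (Cs4g17040), which releases saturated acyl chains, had 281, 266 and 294 reads in Gv against 322, 309 and 243 in control. Its log2 fold change was −0.02 (SE 0.16), and no library stood apart.

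A higher ratio of Gv to control in number 3 than in numbers 1 and 2 was common among the plastid genes. In the 13 plastid genes tested that had reads in all 6 libraries, the median log2 ratio of Gv to control was 0.04 for number 1, 0.15 for number 2 and 0.77 for number 3, and the ratio was above 0 in 8, 10 and 12 of the 13 genes. Over all genes tested with reads in all libraries the corresponding medians were 0.00, −0.01 and 0.00. The exception for number 3 was the KASII gene Cs4g07000 (log2 ratio −0.67). The ACP1-like gene (2.43, 2.62 and 4.05) and the KASII ortholog (2.49, 2.48 and 4.88) had a log2 ratio of at least 2.43 in every number, unlike the remaining genes, of which none exceeded 0.35 in number 1 or 2. In number 3 the PT4 markers were also highest in Gv, and their part in the higher levels of that library was not tested.

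**Figure D3:**
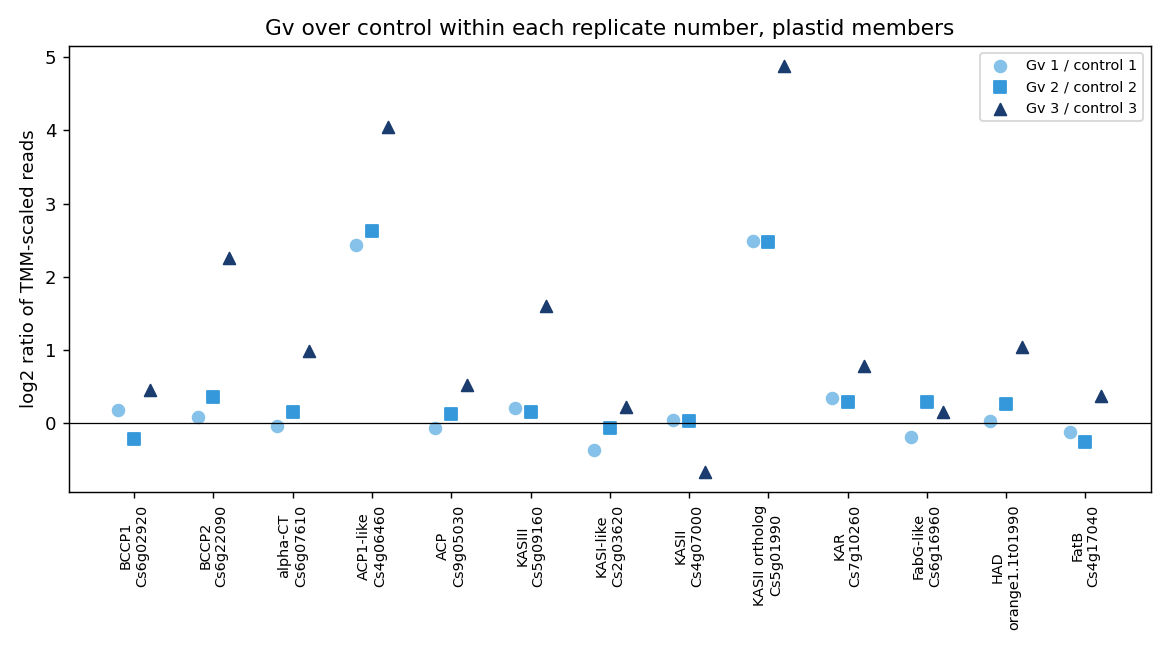
Log2 ratio of the scaled reads of Gv over control within each replicate number, for the 13 plastid members tested that had reads in all 6 libraries, with 1 point per number. Numbers 1 and 2 lie between −0.37 and 0.35 for 11 genes and between 2.43 and 2.62 for the ACP1-like gene and the KASII ortholog, while number 3 lies above 0 in 12 genes.

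Glycerol acylation begins with glycerol-3-phosphate acyltransferases (GPAT). GPAT6 (Cs6g20410) belongs to the land plant family that also makes monoacylglycerols for cutin, and RAM2 of *M. truncatula* is a member of that family. Its reads numbered 80, 77 and 569 in Gv, and no control library held any. Against a floor of 3 reads over the control group this is at least 247.7-fold higher in Gv, or at least 79.7-fold without Gv replicate 3, the largest difference in the module in both cases. The level was 8.51, 7.78 and 61.2 RPKM in Gv replicates 1, 2 and 3, with the third library again far above a close pair. The edgeR test without the block gave an adjusted p of 0.486, and the gene was called with the block (adjusted p = 0.00983), by DESeq2 (adjusted p = 1.28e-05), without Gv replicate 3 (adjusted p = 0.0385) and without replicate 3 in both groups (adjusted p = 0.0063). Having 0 reads in the control libraries limits the transcript in control roots to a low level and does not show that it is absent.

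GPAT8 (orange1.1t00375), of the same family, lay in the opposite direction, with 175, 153 and 162 reads in Gv against 241, 226 and 567 in control. The groups did not overlap, and control replicate 3 was far above the other controls. The log2 fold change was −1.03 (SE 0.36, unadjusted p = 0.0259, edgeR adjusted p = 0.889), −0.92 with the block (adjusted p = 0.375), and −0.49 without control replicate 3. Of the summed RPKM of the 3 module members of this family, GPAT6 held 43.1%, 45.4% and 85.6% in Gv. In control GPAT6 held 0% and GPAT8 97.5% to 99.7%. The sum was 19.8, 17.1 and 71.5 RPKM in Gv replicates 1, 2 and 3 and 14.9, 13.6 and 34.5 RPKM in the controls of the same numbers. Among the 3 members, the make-up thus differed more than the sum in numbers 1 and 2. In number 3 the sum, too, was well above that of the control. Other genes with the KEGG number of this family, given below, are not in the sum. In replicates 1, 2 and 3, Cs7g31730 had 2.77, 3.2 and 5.73 RPKM in Gv and 10.4, 10.2 and 5.22 RPKM in control. Cs6g07920 had 0.726, 1.53 and 4.17 RPKM in Gv and 5.35, 4.82 and 2.64 RPKM in control. Cs7g04640 had 2.41, 3.1 and 40.2 RPKM in Gv and none in control. The shares and the sum thus do not describe the whole step. The third module member of the family, Cs3g18800, had at most 3 reads in a library. A GPAT of the plastid type, Cs3g09190, had 125, 113 and 111 reads in Gv against 99, 96 and 127 in control, with a log2 fold change of 0.16 (SE 0.16).

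The next acyl chain is added by lysophosphatidic acid acyltransferases (LPAAT), of which 2 were tested. The plastid LPAAT1 (Cs4g01780) had 81, 88 and 54 reads in Gv against 77, 113 and 63 in control, with a log2 fold change of −0.16. The LPAAT2-like gene orange1.1t03387, of the type that acts in the endoplasmic reticulum, had 357, 403 and 361 reads in Gv against 421, 379 and 369 in control, with a log2 fold change of −0.03 (SE 0.12). Both had overlapping groups and no library that stood apart. The other LPAAT2-like gene, Cs2g30160, had at most 1 read in a library.

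**Figure D4:**
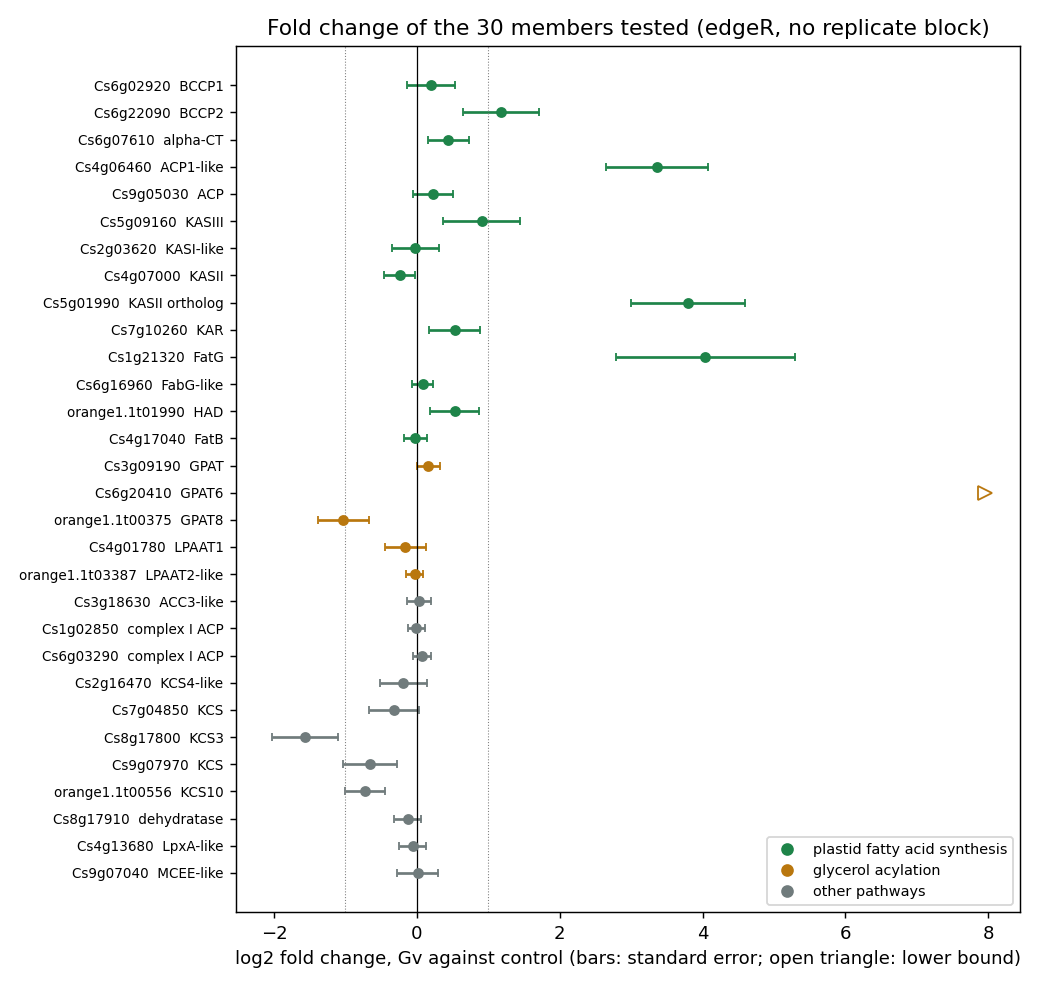
Log2 fold change of Gv against control for the 30 members tested, from edgeR without a replicate block, with bars of 1 standard error, dotted lines at a change of 1 in either direction and an open triangle at the lower bound of GPAT6 (247.7-fold). The ACP1-like gene, the KASII ortholog, FatG and GPAT6 lie beyond 3, and the 6 genes of very-long-chain elongation lie below 0, of which the KCS4-like gene turned to 0.02 without control replicate 2.

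Of the 14 members of other pathways, 9 belong to the elongation of very-long-chain fatty acids in the endoplasmic reticulum, which supplies waxes and suberin. All 6 that were tested had a log2 fold change below 0, with a median of −0.49 beside −0.01 over all genes. None was called by edgeR with or without the block or by DESeq2. Of all genes, 0% were called lower without the block and 0.0369% with it and by DESeq2. No call would be expected among 6 genes at these shares. Within number 3, however, 3 of the 6 had a log2 ratio of Gv to control above 0 (0.23 to 0.46) and a further gene, KCS10, one of 0.00, and the KCS4-like gene changed sign (0.02) without control replicate 2. The ketoacyl-CoA synthase KCS3 (Cs8g17800) had 3, 8 and 3 reads in Gv against 12, 12 and 19 in control, non-overlapping, with a log2 fold change of −1.57 (SE 0.46, edgeR adjusted p = 0.675). KCS10 (orange1.1t00556), known in *Arabidopsis thaliana* as FIDDLEHEAD and active in the epidermis of the shoot, had 42, 35 and 60 reads in Gv against 89, 78 and 64 in control. Its level was lower in Gv in numbers 1 and 2 (log2 ratios −1.02 and −1.21) and the same in number 3 (0.00). Another synthase, Cs9g07970, had 25, 41 and 69 reads in Gv against 80, 80 and 58 in control, and thus also differed in numbers 1 and 2 (log2 ratios −1.61 and −1.02) and not in number 3 (0.35). Cs7g04850 (log2 fold change −0.32), the KCS4-like Cs2g16470 (−0.19) and the dehydratase Cs8g17910 (−0.13) had overlapping groups. The KCS genes Cs3g14070, Cs6g02360 and Cs9g07930 had at most 5 reads in a library and were not tested.

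The remaining 5 members stayed close to their control level. The multidomain acetyl-CoA carboxylase Cs3g18630, which serves elongation outside the plastid, had 595, 728 and 794 reads in Gv against 622, 646 and 853 in control (log2 fold change 0.03, SE 0.17). The ACPs of mitochondrial complex I, Cs1g02850 and Cs6g03290, had 175 to 197 and 168 to 206 reads in Gv and 180 to 198 and 167 to 196 in control, with log2 fold changes of −0.01 and 0.07 (SE 0.12 and 0.13). These ACPs differ in their pattern from the ACP1-like gene although the annotation names all of them acyl carrier proteins. Cs4g13680, annotated as an acyltransferase of lipid A synthesis, had a log2 fold change of −0.06, and the methylmalonyl-CoA epimerase-like Cs9g07040 one of 0.01.

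Over the tested members, every Gv library was above every control library in RPKM in 5 genes, against 5.35% of all genes tested, and below in 3 genes, against 3.26%. The 5 genes were BCCP2, the ACP1-like gene, the KASII ortholog, FatG and GPAT6, and the 3 genes GPAT8, KCS3 and KCS10. BCCP2 parted by little in Gv replicates 1 and 2, FatG by little between Gv replicate 1 and control replicate 3, and KCS10 by little between Gv replicate 3 (7.03 RPKM) and control replicate 3 (7.14 RPKM).

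Other genes carry the KEGG number of one of these steps but no wording that the annotation text would find. This list of 31 genes was drawn up from the KEGG numbers after the values of the members had been seen, and 18 of its genes were tested, with a median log2 fold change of 0.35. edgeR called 0 of them without the block, with 7 at an unadjusted p under 0.05 (4.57% of all genes), and 1 higher with it (0.958%). DESeq2 called 1 higher (1.15%), and the NOISeq criterion placed 3 of those listed higher (1.35%). The gene Cs7g04640, with the KEGG number of the GPAT6 family, had 17, 23 and 280 reads in Gv and none in the controls, a difference of at least 109.2-fold (same floor), and was called with the block (edgeR adjusted p = 0.0257). Without Gv replicate 3 the bound was 20.3-fold, and edgeR without the block did not call it (adjusted p = 0.158). Its reads thus had the same form as those of GPAT6, at a lower level. Cs7g04640, the next gene Cs2g13450 and the PT4 markers passed the filter on low counts through their Gv reads. Their calls and p-values thus describe these genes and are no test of a rise. Cs2g13450, with the KEGG number of acyl-ACP thioesterase B, had 21, 27 and 267 reads in Gv against 4, 0 and 1 in control (log2 fold change 5.92, SE 1.50, edgeR adjusted p = 0.552 without and 0.0693 with the block), with 64.5 times as many pooled reads in Gv (95% exact counting interval 27.3 to 199.9). Without Gv replicate 3 its log2 fold change was 3.77 and the pooled ratio 14.6. Another gene with this number, orange1.1t02607, lay the other way, with 12, 10 and 21 reads in Gv against 38, 41 and 26 in control, non-overlapping, and a log2 fold change of −1.25 (unadjusted p = 0.0147, edgeR adjusted p = 0.714). The stearoyl-ACP desaturase Cs3g20840, which introduces the first double bond, had 26, 124 and 240 reads in Gv against 15, 34 and 15 in control, overlapping between the groups, and was the gene called by DESeq2 (adjusted p = 0.0434), which gave no adjusted p for Cs7g04640 and Cs2g13450.

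The genes of the list for the other steps of the core cycle resembled the core members. The enoyl-ACP reductase orange1.1t02015, which completes each round, had 239, 260 and 749 reads in Gv against 228, 221 and 327 in control. The malonyl-CoA:ACP transferase Cs8g20810 had 109, 148 and 435 reads in Gv against 115, 85 and 225 in control. The biotin carboxylase Cs4g04540 had 377, 381 and 861 reads in Gv against 316, 280 and 387 in control. In all 3 genes Gv replicate 3 was well above the other Gv libraries, and none was called by edgeR, with or without the block, or by DESeq2. A second gene annotated as KASIII, Cs5g09170, next to Cs5g09160 by identifier, had 86, 85 and 162 reads in Gv against 51, 61 and 67 in control, with non-overlapping groups and a log2 fold change of 0.94 (SE 0.31, edgeR adjusted p = 0.81). At 857 bases it is short, and reads of neighbouring gene models of the same enzyme may have been split between them. A further pair of genes with the GPAT number lay lower, Cs7g31730 with 23, 28 and 47 reads in Gv against 89, 91 and 45 in control, and Cs6g07920 with 9, 20 and 51 in Gv and 68, 64 and 34 in control, in both cases lower in numbers 1 and 2 and not in number 3, and neither was called by edgeR or DESeq2.

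Of the pathways that feed or use the products, 0 genes were called in either direction by edgeR, with or without the block, or by DESeq2. Of all genes, 0% were called without the block, 0.958% higher and 0.0369% lower with it, and 1.15% and 0.0369% by DESeq2. In lists this short few or no calls would be expected at these shares, so 0 calls is no result about the pathways. Pyruvate supply (17 genes tested) had a median log2 fold change of 0.08, lipoyl synthesis and transfer (5 tested) 0.08, fatty acid desaturation (5 tested) −0.27, glycerolipid assembly (5 tested) −0.12, cutin and suberin (2 tested) −0.50 and beta-oxidation (5 tested) −0.04. An unadjusted p under 0.05 (edgeR without the block) was found for 2, 0, 0, 0, 1 and 1 of these genes, and for 4.57% of all genes. The 2 genes of the pyruvate list were higher in Gv without overlap. They were the phosphoenolpyruvate translocator Cs2g27760 (log2 fold change 0.73, 8 to 19 reads in a library) and Cs9g01330 (0.39). Cs9g01330 is annotated as pyruvate dehydrogenase but carries the KEGG number K00898, not that of the E1 alpha gene Cs5g01270 (K00161). The wording behind the pyruvate list finds pyruvate kinases, pyruvate dehydrogenase genes and phosphate translocators, not all of them of the plastid. The list also holds a pyruvate dehydrogenase phosphatase (Cs9g02120) and a subunit of 2-oxoglutarate dehydrogenase (Cs4g10100). Within it, the pyruvate kinases Cs8g03650 and Cs9g18710, the acetyltransferase of pyruvate dehydrogenase Cs7g13170 and the dihydrolipoamide dehydrogenase Cs9g02470 had log2 fold changes of 0.72, 0.84, 0.83 and 0.89, with the most reads of any library in Gv replicate 3, and 0.13, −0.02, −0.03 and 0.17 without it, and none was called by edgeR or DESeq2. In the same list the glucose-6-phosphate translocator Cs2g07720, which imports sugar phosphate into non-green plastids, had 168, 111 and 328 reads in Gv against 116, 280 and 6050 in control. Its difference was thus that of control replicate 3, and the NOISeq criterion placed it lower in Gv, while DESeq2 gave no adjusted p for it. The feruloyl transferase orange1.1t02619, which acts in suberin, had 127, 114 and 128 reads in Gv against 238, 227 and 183 in control, without overlap (log2 fold change −0.78, SE 0.17, unadjusted p = 0.00293, edgeR adjusted p = 0.408). No gene was annotated as WRINKLED1, the transcription factor of fatty acid synthesis, in the wording searched.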

How the data were processed

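RNA from lateral roots was sequenced in 6 libraries, 3 Gv and 3 control, grouped by their labels. Reads that passed the authors' filter had been aligned with SOAPaligner/SOAP2 to the genome of *Citrus sinensis*, and the authors deposited, per gene, the count of uniquely aligned reads. The authors also deposited the RPKM, the count scaled by the listed gene length and the reads on genes. Genes not listed were taken as 0. The test was edgeR 4.0.16 (R 4.3.3, expression filter, TMM, quasi-likelihood test, Benjamini-Hochberg over 16281 genes, no block). Standard errors were derived from the F value. Alternatives were DESeq2 1.42.0, limma 3.58.1 on log2 RPKM with 0.5 or 0.1 added, a replicate block, other scalings and filters, libraries left out, and NOISeq re-implemented in Python 3.11.15 with 0.5 for a count of 0.

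The main design leaves out a pairing by number. No source describes such a pairing, which was inferred from the correlations given above (limit 0.1). The crossed pairs of numbers 1 and 2 (0.426 and 0.273) pass it too, so that number 3 is what stands apart. The common coefficient of variation was 29.9% without and 16.7% with the block.

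The members and lists were chosen with earlier results of these data known. Named are the highest member of each step, those called without or with the block or by DESeq2, those with non-overlapping groups whose log2 fold change reaches 1 in either direction, those with reads in all Gv and no control libraries or the reverse, and both added genes. All other members and genes were named to complete the account, after their values were seen. The study describes the replicates as biological. Fungal reads were not analysed here.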

Additional observations from a re-analysis of the deposited data

How the results depend on the processing

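The count of members higher in Gv, 0 by edgeR without the block, was 3 with the replicate block, 4 by DESeq2, 5 by the NOISeq criterion, 1 by limma on log2(RPKM + 0.1), 3 without replicate 3 in both groups, and 3 with the replicate block and without replicate 3, which was added after seeing the data. With 1 library left out it ranged from 0 to 2, the 2 arising without Gv replicate 3. It stayed at 0 under the other scalings and filters, without a fold limit and by limma on log2(RPKM + 0.5). No alternative called a member lower. Over all genes the counts higher and lower, 0 and 0, became 156 and 6 with the replicate block, 187 and 6 by DESeq2, 304 and 73 by NOISeq, 166 and 39 without replicate 3, 149 and 51 with the block and without replicate 3, and ranged from 0 to 68 and from 0 to 1 with 1 library left out. They became 22 and 73 higher by limma with 0.5 and 0.1 added. The members' median log2 fold change of 0.02 lay between −0.02 and 0.14. Of 284 values for the 19 members named by rule, 255 kept direction and side of the threshold, 13 passed the threshold and 16, in 7 members near 0, changed sign. With libraries left out, these ran from −0.07 to 0.17 for Cs3g18630, −0.11 to 0.39 for Cs9g05030, −0.43 to 0.20 for Cs2g03620, −0.20 to 0.06 for Cs4g17040, −0.08 to 0.03 for orange1.1t03387, −0.47 to 0.02 for Cs2g16470 and −0.21 to 0.27 for Cs9g07040 (−0.01 with upper-quartile scaling). The block changed no call but those of the ACP1-like gene, FatG and GPAT6 among the members that of Cs7g04640 in the KEGG list and those of the PT4 markers (edgeR adjusted p = 0.287 and 0.36 without the block, 0.00258 and 0.00448 with it). The cause of these changes was not tested. The 7 members of a few reads could not be tested, and differences in them were not detectable at this depth.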
